A study of Mus musculus with 34 samples.

Results

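The genes described here are 32 genes expressed mainly by microglia, the resident macrophages of the brain, and by the macrophages at its borders. They were taken by gene symbol from the bulk RNA-seq count table of the series, which holds 54532 genes, and all 32 had a row. The table covers the dorsal hippocampus of 8 adult male C57BL/6J mice, aged 2 to 3 months. In the home cage group (HC, n = 4) mice stayed in their cage, and in the SOR group (n = 4) tissue was collected 1 h after training in spatial object recognition, a task in which a mouse explores objects at fixed positions in an arena. Each library came from tissue that holds every cell type of the dorsal hippocampus, so a value is the sum over all of its cells. The comparison asks whether the RNA of these genes differed between the groups at this time. Because the HC mice did not enter the arena, learning cannot be told apart from exposure to the arena and its objects.

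Microglia survey the tissue with moving processes, sense ATP and ADP released by neurons and damaged cells, and engulf debris and synaptic material. P2ry12 encodes the ADP receptor that steers microglial processes toward a nucleotide source, and P2ry13 encodes a related ADP receptor from the neighbouring gene. Cx3cr1 is the receptor for fractalkine, a chemokine that neurons carry on their surface, and Csf1r is the growth factor receptor on which microglial survival depends. The C1q chains start the classical complement cascade and are made in the brain mostly by microglia. Tyrobp and Fcer1g are signalling adaptors with an ITAM motif, used by Trem2 and by Fc receptors, while Spi1, Irf8 and Sall1 encode transcription factors of the myeloid lineage and of microglial identity. Mrc1 and Cd163 mark macrophages along vessels and meninges rather than microglia.

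Promoter sequences are shown for 4 genes, P2ry12, P2ry13, Cx3cr1 and Itgam, because these are the genes with the smallest p-values below. Each is the 250 bases before the RefSeq gene start in GRCm38.p6, printed 5′ to 3′ on the strand of the gene. Capitals mark AGGAAGT or GAGGAAG, sequences that PU.1, the protein encoded by Spi1, can bind, though not PU.1 alone. The windows lie at chr3:59262986-59263235 on the minus strand for P2ry12, chr3:59210883-59211132 on the minus strand for P2ry13, chr9:120068297-120068546 on the minus strand for Cx3cr1 and chr7:128062390-128062639 on the plus strand for Itgam.
P2ry12: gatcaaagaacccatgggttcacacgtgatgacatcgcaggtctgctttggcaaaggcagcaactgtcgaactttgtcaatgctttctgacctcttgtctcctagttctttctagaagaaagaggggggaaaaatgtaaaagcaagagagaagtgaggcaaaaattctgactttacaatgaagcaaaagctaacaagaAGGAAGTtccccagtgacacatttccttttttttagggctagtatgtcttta
P2ry13: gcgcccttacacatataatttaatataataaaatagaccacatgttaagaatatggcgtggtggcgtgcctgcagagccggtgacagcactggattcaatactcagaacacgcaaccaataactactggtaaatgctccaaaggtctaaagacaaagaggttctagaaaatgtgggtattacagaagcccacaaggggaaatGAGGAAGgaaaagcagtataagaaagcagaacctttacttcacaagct
Cx3cr1: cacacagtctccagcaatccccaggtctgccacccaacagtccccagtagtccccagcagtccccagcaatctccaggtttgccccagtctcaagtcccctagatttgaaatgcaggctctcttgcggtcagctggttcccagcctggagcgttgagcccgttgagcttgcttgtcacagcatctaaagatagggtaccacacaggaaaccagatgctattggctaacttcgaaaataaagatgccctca
Itgam: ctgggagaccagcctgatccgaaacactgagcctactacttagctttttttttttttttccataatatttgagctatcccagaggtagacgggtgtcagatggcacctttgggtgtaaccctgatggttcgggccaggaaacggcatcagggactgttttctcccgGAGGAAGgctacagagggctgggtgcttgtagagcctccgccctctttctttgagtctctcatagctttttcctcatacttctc
The match began 52 bases before the gene start in P2ry12, 48 bases before it in P2ry13 and 84 bases before it in Itgam, and the Cx3cr1 window held none. RefSeq windows were found for 25 of the 32 genes, 30 windows in all. On either strand, 16 of these 30 windows (53.3%) held AGGAAGT or GAGGAAG, against 15.4% of all 32851 windows of the same length. Both motifs hold AGGAAG, so their matches can overlap. TGACTCA, the element read by AP-1, was in 1 of the 30 windows (3.33%) and in 4.46% of all windows. A match describes the letters only and does not show which protein, if any, is bound there. The RefSeq start of Cx3cr1 lies inside the GENCODE gene, which begins farther upstream, and the GENCODE start of P2ry12 lies downstream of the RefSeq start.

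The libraries held between 51406011 and 81525977 estimated counts. All 32 genes passed the filter on low counts, which left 22018 genes, and their estimated counts lay between 52.6 and 5809 in a library. Levels are given in CPM, the counts of a gene relative to the upper-quartile-scaled total of its library. Neuronal markers were abundant in every library, with Snap25 between 1351 and 1540 CPM. A pair of libraries stood apart in markers of other tissue. The SOR replicate 1 library had the highest summed level of 8 choroid plexus genes, 4073 CPM against 27.5 to 1119 in the other 7, and SOR replicates 1 and 4 had the highest summed level of 5 red blood cell genes, 177 and 184 CPM against 98.6 to 127. Counts over the 32 genes, and the log2 fold changes of several genes, are also given without both libraries, a setting chosen after the data were seen.

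None of the 32 genes differed between SOR and HC at the thresholds of the study, an adjusted p under 0.05 with a fold change above 1.4. In the fit used here 38 of 22018 genes passed them (0.173%). The study reported more genes at these thresholds with its own fit, which was not reproduced here. None passed the adjusted p alone, which 68 genes passed (0.309%). At an unadjusted p under 0.05 the quasi-likelihood test of edgeR counted 4 of the 32 genes (12.5%) against 10.1% of all genes. All 4 were lower in SOR, as were 5.51% of all genes at that threshold while 4.54% were higher, and they were P2ry13, Cx3cr1, P2ry12 and Itgam. The count depended on single libraries. It was 7 of the 32 (21.9%) without SOR replicate 2, against 9.82% of all genes, and 7 without SOR replicate 3, against 10.4%, where 5 were lower and Tmem119 and Cd163 were higher. It was 8 (25%), all lower, without SOR replicates 1 and 4, against 11.0% of all genes, with C1qa, C1qb, C1qc and Cd53 added to the 4. For Itgam, the C1q genes and Cd53 the libraries left out held the highest SOR values. With all 8 mice, limma-voom counted 6 (18.8%), against 10.5% of all genes. Among other tools, the likelihood ratio test of edgeR and DESeq2 each passed 1 gene at an adjusted p under 0.05, P2ry13, and limma-voom passed none. Less RNA of these genes per cell and fewer cells carrying them cannot be told apart in bulk tissue.

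Across the 32 genes the log2 fold change (SOR over HC) was below 0 for 24 and above 0 for 8, which is 75% below 0, against 56.2% of all genes tested. The median was -0.10, against -0.02 over all genes, and the range ran from -0.62 for Spi1 to 0.35 for Cd163. The sign changed for 12 of the 32 under at least 1 alternative scaling, filter, model or set of libraries, Cd163 among them. The median was -0.16 without SOR replicates 1 and 4, with 28 genes below 0 and 4 above. For 25 of the 32 genes (78.1%) the 95% confidence interval lay inside a fold change of 1.4 in either direction, against 58.9% of all genes. The summed level of the 32 genes was 522, 570, 593 and 578 CPM in the HC mice and 541, 520, 495 and 556 CPM in the SOR mice. The means were 566 ± 30.7 and 528 ± 26.4 CPM (SD, n = 4 each), lower by 6.66% of the HC mean, and the groups overlapped.

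**Figure D1:**
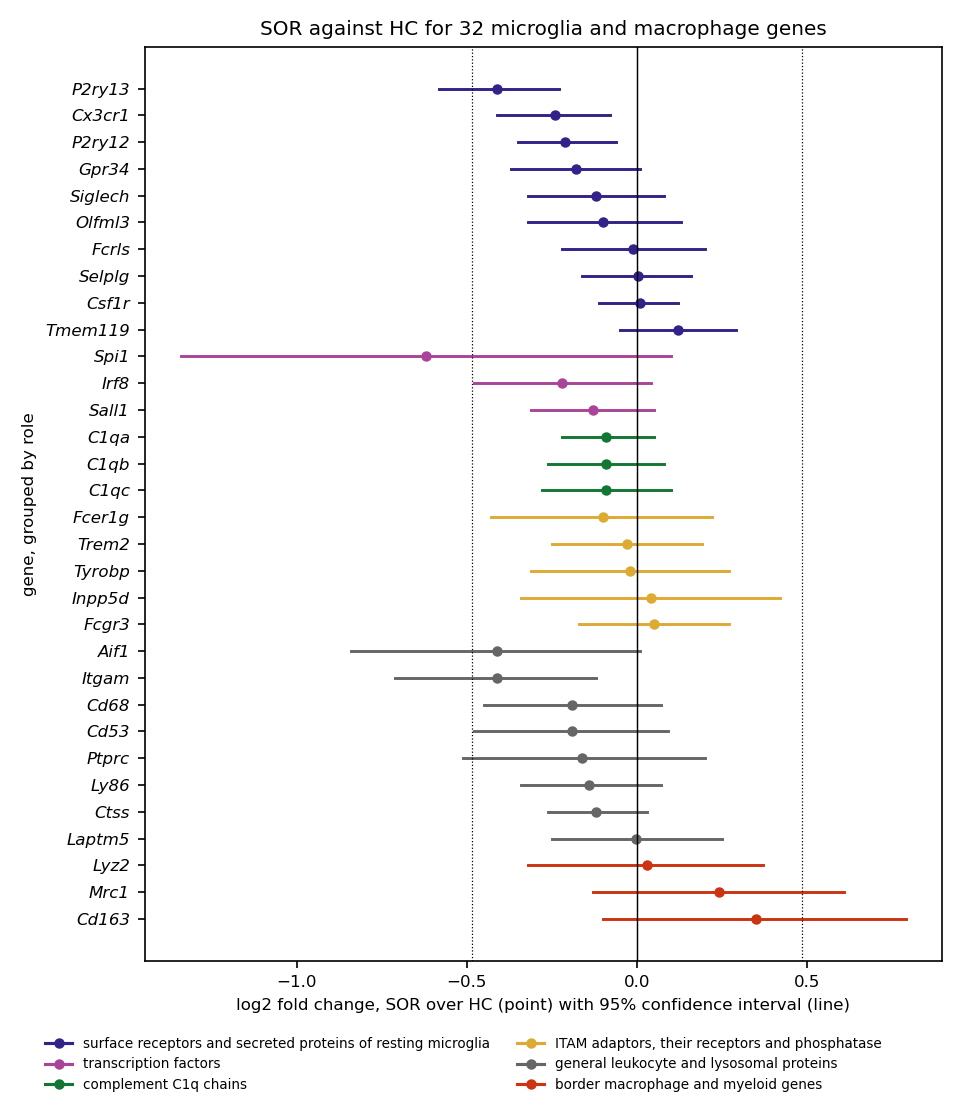
Log2 fold change of SOR over HC for each of the 32 genes (points, horizontal axis) with its 95% confidence interval (lines), grouped by role on the vertical axis; the dotted lines mark a fold change of 1.4 in either direction. The intervals of P2ry13, Cx3cr1, P2ry12 and Itgam lie below 0, and no interval lies above 0.

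The genes of surface receptors and secreted proteins that mark resting microglia held the smallest p-value. P2ry13 (ENSMUSG00000036362, chr3:59207892-59210882, minus strand, GRCm38) was at 11.6, 11.7, 12.4 and 11.8 CPM in the HC mice and at 9.69, 9.31, 8.25 and 8.53 CPM in the SOR mice. Every SOR mouse was below every HC mouse, and P2ry13 was the only 1 of the 32 genes whose groups did not overlap (3.12%, against 6.95% of all genes, 3.96% with SOR lower and 2.99% with SOR higher). The fitted fold change was 0.755, a log2 fold change of -0.41 (SE 0.0786, 95% interval -0.58 to -0.23). Its p ranked 103rd of the genes tested and its adjusted p was 0.0779 by edgeR. The exact two-sided permutation test gave p = 0.0286, the smallest that 4 against 4 samples allow. The adjusted p was 0.0191 by the likelihood ratio test of edgeR and 7.79e-04 by DESeq2, with a fold change under 1.4 in both.

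The other ADP receptor gene lies beside P2ry13 on the same strand. P2ry12 (ENSMUSG00000036353, chr3:59216272-59262871, minus strand) was at 39.1, 41.8, 45.0 and 41.6 CPM in the HC mice and at 32.8, 36.9, 35.6 and 40.0 CPM in the SOR mice. Only SOR replicate 4 reached into the HC range. The log2 fold change was -0.21 (SE 0.0666, 95% interval -0.35 to -0.06) with an adjusted p of 0.321 by edgeR, so the difference did not hold after adjustment. P2ry12 shares 9 exon bases with Med12l on the opposite strand, and P2ry13 lies inside the same gene without sharing exon bases. Whether counting used strand is not stated. Med12l, named for this overlap after its values were seen, had a log2 fold change of 0.01 (SE 0.0408, adjusted p = 0.952 by edgeR).

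Cx3cr1 (ENSMUSG00000052336, chr9:119901616-120069879, minus strand) was at 28.6, 33.0, 34.1 and 33.4 CPM in the HC mice and at 25.4, 29.5, 25.7 and 28.4 CPM in the SOR mice. HC replicate 1 was the low HC mouse and lay within the SOR range, and the other HC mice lay above it. The log2 fold change was -0.24 (SE 0.0730, 95% interval -0.41 to -0.08), with an adjusted p of 0.276 by edgeR. Cx3cr1 shares 78 exon bases with the antisense gene Gm33858, listed at 4.93 to 13.7 counts per library. The ligand gene Cx3cl1 was at 242 ± 15.8 CPM in HC and 250 ± 14.9 CPM in SOR (SD, n = 4 each), a log2 fold change of 0.05 (SE 0.0576).

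**Figure D2:**
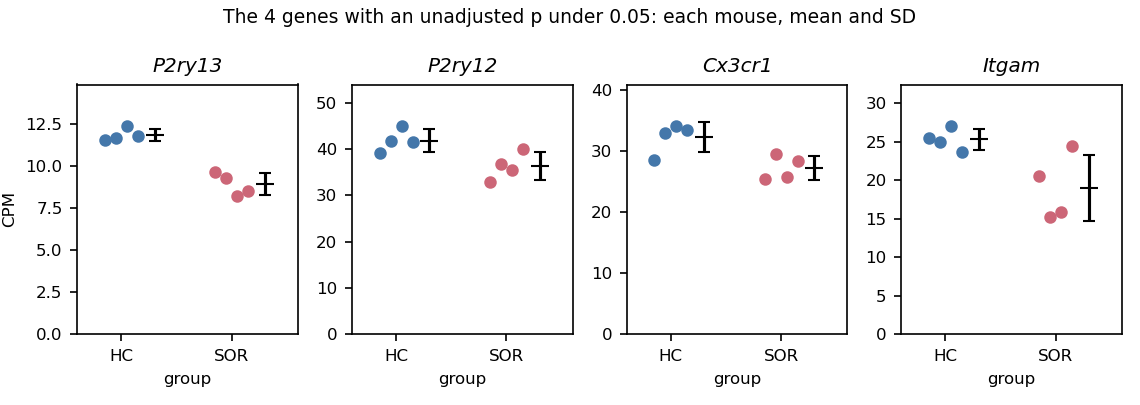
CPM (vertical axis, from 0) of P2ry13, P2ry12, Cx3cr1 and Itgam in each HC and SOR mouse (points), with the mean and SD of 4 mice beside them. The groups are apart for P2ry13, with HC at 11.6 to 12.4 CPM and SOR at 8.25 to 9.69 CPM, and overlap for the other 3 genes.

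Csf1r, the highest of the 32 genes in CPM, was at 64.2, 66.1, 71.3 and 72.9 CPM in the HC mice and at 68.9, 68.6, 65.0 and 73.1 CPM in the SOR mice. The ranges nearly coincided. The log2 fold change of 0.01 had a 95% interval of -0.11 to 0.12. This interval overlapped those of P2ry12 and Cx3cr1 but not that of P2ry13, and no test between genes was made. Csf1r shares 873 exon bases with Hmgxb3 on the opposite strand. Tmem119, a transmembrane protein used to tell microglia from other macrophages, was at 14.6, 15.4, 14.5 and 15.7 CPM in HC and at 18.1, 16.4, 14.7 and 16.2 CPM in SOR. It was the only surface gene of this group with a log2 fold change above 0.1, at 0.12 (95% interval -0.05 to 0.29, adjusted p = 0.641 by edgeR).

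The other 5 genes of this group did not pass either. Gpr34, a receptor for lysophosphatidylserine, had a log2 fold change of -0.18 (95% interval -0.37 to 0.01), and 3 of the 4 SOR mice, at 8.94 to 9.14 CPM, lay below the HC range of 10.3 to 11.0 CPM. Siglech, a receptor of the Siglec family, had -0.12, and Olfml3, a secreted matrix protein, had -0.10. Fcrls, a microglial Fc receptor-like protein, was at -0.01, with a positive sign under TMM and RLE scaling, and Selplg, the ligand of P-selectin, was at 0.0022. Fcrls was at -0.18 and Olfml3 at -0.21 without SOR replicates 1 and 4. Adjusted p by edgeR with all 8 mice lay between 0.518 and 0.997 for these 5 genes.

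The 3 transcription factor genes were all lower in SOR on average, and none passed. Spi1 was at 1.86, 3.44, 1.68 and 2.68 CPM in the HC mice and at 0.981, 2.53, 1.77 and 1.03 CPM in the SOR mice. It varied more between mice than any other of the 32 genes, with a biological coefficient of variation of 32.4% against a median of 11.2% for the 32. Its log2 fold change of -0.62, the only 1 of the 32 beyond a fold change of 1.4, had a 95% interval of -1.34 to 0.10 (adjusted p = 0.559 by edgeR). It was -0.18 without SOR replicates 1 and 4, the libraries with high red blood cell markers, and -0.94 without SOR replicate 2. Its size thus depended on single libraries. Irf8, an interferon regulatory factor that acts with PU.1, had a log2 fold change of -0.22 (95% interval -0.48 to 0.04) and Sall1, a zinc finger factor of microglial identity, had -0.13 (95% interval -0.31 to 0.05).

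The genes of the 3 C1q chains, which lie side by side on chromosome 4, had the same log2 fold change of -0.09. C1qa was at 51.8, 57.4, 59.0 and 57.0 CPM in HC and at 54.6, 50.0, 49.4 and 58.2 CPM in SOR. C1qb was at 30.1, 33.4, 36.8 and 36.0 CPM in HC and at 34.4, 29.6, 30.2 and 34.1 CPM in SOR. C1qc was at 23.9, 28.0, 28.3 and 28.2 CPM in HC and at 26.5, 23.9, 22.8 and 28.7 CPM in SOR. In each of them HC replicate 1 was the low HC mouse and SOR replicates 2 and 3 were the low SOR mice. The groups overlapped, and adjusted p by edgeR was 0.697, 0.757 and 0.778. The log2 fold changes without SOR replicates 1 and 4 were -0.18, -0.19 and -0.22, each at an unadjusted p under 0.05, with adjusted p of 0.328, 0.428 and 0.385 by edgeR.

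The ITAM adaptors and their partners were close to 0. Tyrobp had a log2 fold change of -0.02 (95% interval -0.31 to 0.27), with a positive sign under TMM and RLE scaling, and Trem2, the lipid receptor that signals through it, had -0.03 (95% interval -0.25 to 0.19). Fcer1g had -0.10 and the Fc gamma receptor gene Fcgr3 had 0.05 (95% interval -0.17 to 0.27). Inpp5d encodes SHIP1, a lipid phosphatase that dampens ITAM signalling. It was at 12 CPM in SOR replicate 3 and between 6.92 and 9.18 CPM in the other 7 mice, and its log2 fold change was 0.04 (95% interval -0.34 to 0.42). Adjusted p by edgeR for these 5 genes was at least 0.866. Tyrobp was at -0.20, Fcer1g at -0.26, Fcgr3 at -0.09 and Inpp5d at 0.22 without SOR replicates 1 and 4. Fcgr3 belongs to a family of similar receptor genes, and how reads shared with a relative were assigned is not stated.

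The 8 genes of general leukocyte and lysosomal proteins all had a log2 fold change below 0, with the lysosomal membrane protein gene Laptm5 at -0.0014 and positive under TMM, RLE and library size scaling. Itgam, the alpha chain of complement receptor CR3 (CD11b; ENSMUSG00000030786, chr7:128062640-128118491, plus strand), was at 25.4, 25.0, 27.0 and 23.7 CPM in the HC mice. In the SOR mice it was at 20.5, 15.2, 15.9 and 24.4 CPM. SOR replicates 2 and 3 were far below every HC mouse, SOR replicate 1 was less so, and SOR replicate 4 lay inside the HC range. The log2 fold change was -0.41 (SE 0.134, 95% interval -0.71 to -0.12), with an adjusted p of 0.325 by edgeR. Without SOR replicates 1 and 4, left out together after their marker levels were seen, it was -0.71 with an adjusted p of 0.0127 by edgeR, and Itgam was then the only 1 of the 32 genes called. These libraries held the highest Itgam values of the SOR mice, so leaving them out enlarged the difference. Itgam shares 3450 exon bases with Gm49368 on the same strand, a protein-coding gene model listed at 0 to 11.6 counts per library.

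Aif1, which encodes IBA1, the protein stained to show microglia, was at 2.79, 1.97, 3.32 and 2.85 CPM in HC and at 2.26, 1.55, 2.48 and 1.86 CPM in SOR. Its log2 fold change of -0.41 was, to 2 decimals, that of P2ry13 and Itgam, but the 95% interval of -0.84 to 0.01 was wider and the groups overlapped (adjusted p = 0.506 by edgeR). Ctss, the lysosomal protease cathepsin S, was the most abundant gene of this group, at 66.8 ± 4.49 CPM in HC and 61.7 ± 4.66 CPM in SOR (SD, n = 4 each), a log2 fold change of -0.12 (95% interval -0.26 to 0.03). Cd68, a lysosomal glycoprotein of phagocytes, had -0.19 (95% interval -0.45 to 0.07). The remaining genes were the tetraspanin gene Cd53 at -0.19, Ptprc, which encodes the leukocyte phosphatase CD45, at -0.16 and Ly86, the partner of a toll-like receptor homologue, at -0.14, with adjusted p by edgeR between 0.669 and 0.806. Cd53 was at -0.34 without SOR replicates 1 and 4, at an unadjusted p under 0.05 and an adjusted p of 0.438 by edgeR.

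The 3 border macrophage and myeloid genes were the only role group with every log2 fold change above 0, and none passed. Mrc1, the mannose receptor, was at 4.21, 2.79, 4.39 and 3.60 CPM in HC and at 5.24, 4.62, 3.52 and 4.30 CPM in SOR. Cd163, the haemoglobin scavenger receptor, was at 1.39, 1.16, 1.42 and 1.09 CPM in HC and at 2.09, 1.28, 1.22 and 1.85 CPM in SOR. Lyz2, the lysozyme of macrophages and neutrophils, was at 4.20, 4.25, 4.79 and 4.26 CPM in HC and at 6.03, 3.72, 3.76 and 4.24 CPM in SOR. For each of them SOR replicate 1 was the highest of the 8 mice, the library that was also highest in choroid plexus genes and among the 2 highest in red blood cell genes. The log2 fold changes were 0.24 for Mrc1 (95% interval -0.13 to 0.61), 0.35 for Cd163 (95% interval -0.10 to 0.79) and 0.03 for Lyz2 (95% interval -0.32 to 0.37). Without SOR replicate 1 they were 0.15, 0.19 and -0.16, and without SOR replicates 1 and 4 they were 0.12, -0.02 and -0.23. All 8 choroid plexus and all 5 red blood cell markers had a log2 fold change above 0, and their part in the border macrophage values was not tested.

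**Figure D3:**
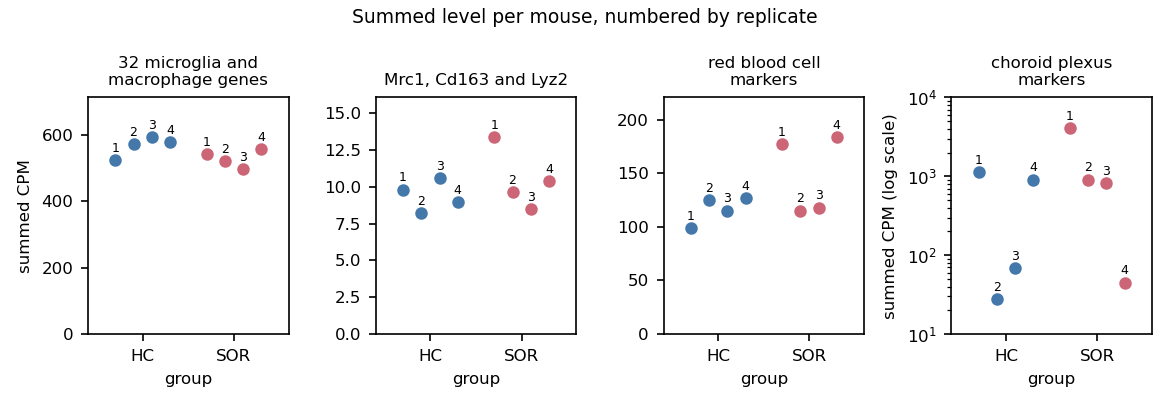
Summed CPM per mouse (vertical axes) for the 32 genes, for Mrc1, Cd163 and Lyz2, for 5 red blood cell markers and, on a log scale, for 8 choroid plexus markers, with points numbered by replicate. SOR replicate 1 is highest for the 3 border macrophage genes at 13.4 CPM and for the choroid plexus markers at 4073 CPM, while the 32 genes together stay between 495 and 593 CPM in all 8 mice.

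Per length, the order of the genes was led by complement and lysosomal genes. Levels between genes are given as CPM per kilobase of merged exons (RPKM), and a gene with many long transcript models, such as Ptprc with 18313 merged exon bases, is understated on this scale. C1qa had the highest level at 52.6 RPKM over the 8 mice, followed by Ctss at 47.3 RPKM and C1qb at 30.4 RPKM. The mean ± SD ranges of C1qa and Ctss overlapped in both groups, at 54.1 ± 2.99 and 49.2 ± 3.31 RPKM in HC and at 51.0 ± 3.97 and 45.4 ± 3.43 RPKM in SOR (SD, n = 4 each), whereas C1qb was clear of both. P2ry12 came next at 15.4 RPKM, then C1qc at 13.6 RPKM and Csf1r at 11.9 RPKM. At the low end were Irf8 at 0.537 RPKM, Cd163 at 0.263 RPKM and Ptprc at 0.220 RPKM. In both groups P2ry12 was above C1qc and C1qc above Csf1r, although neighbours in this order lay within their spread in SOR, at 14.3 ± 1.18, 13.2 ± 1.37 and 11.9 ± 0.573 RPKM (SD, n = 4 each).

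**Figure D4:**
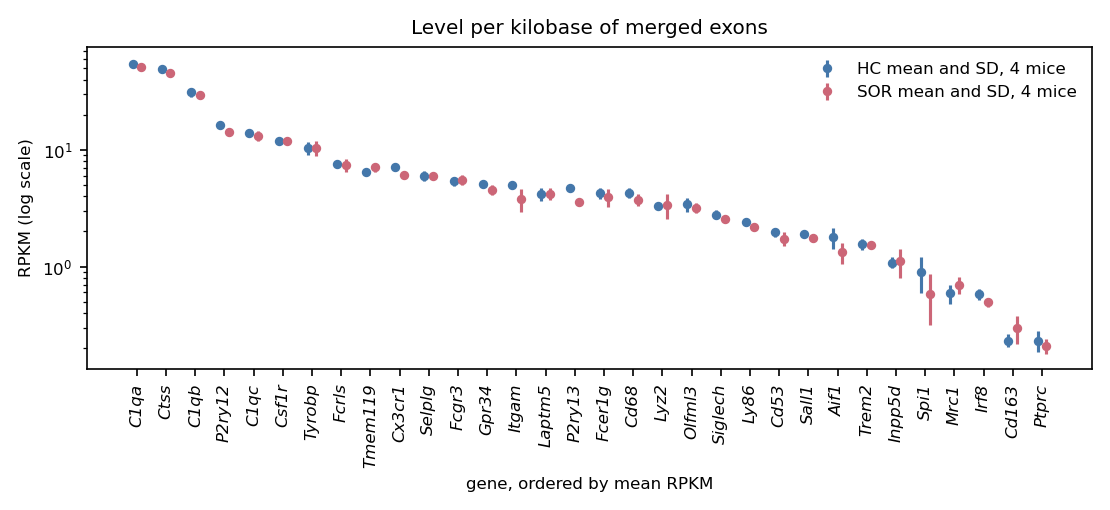
Mean RPKM with SD over 4 mice (vertical axis, log scale) for HC and SOR, with the 32 genes ordered by their mean level on the horizontal axis. Levels run from 52.6 RPKM for C1qa to 0.220 RPKM for Ptprc, and the HC and SOR points of a gene lie close together beside this range.

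Individual mice shifted many of the genes at once. HC replicate 1 had the lowest HC value for 21 of the 32 genes and HC replicate 3 the highest for 17. Within SOR, replicate 3 had the lowest value for 17 genes and replicate 4 the highest for 12. How often each mouse was lowest or highest over all genes was not computed. HC replicate 1 was also the lowest HC mouse in the summed neuronal, astrocyte and red blood cell markers. It was not the lowest in the oligodendrocyte or endothelial markers. After subtraction of group means, the log2 CPM of a gene correlated over the 8 mice with the mean profile of the other 31 at a median Pearson r of 0.46, and r was above 0.5 for 14 of the 32 (43.8%). Among the 16321 other genes that averaged 1 CPM or more, the median r with the profile of the 32 was 0.04, and 19.2% were above 0.5. Trem2 followed the others most closely with r = 0.94, and the 3 C1q genes had r between 0.84 and 0.88. P2ry13 had 0.50, and P2ry12 and Itgam each had 0.42. Inpp5d had the lowest at -0.41, with Sall1 at -0.32 and Spi1 at -0.29. These values describe 8 libraries that share dissection and sequencing, and no test is attached to them.

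The 10 genes outside the set most like its profile were Vrk2, Serpina3n, Slc39a14 and Ccnq with r = 0.99, Dennd5a, Iqcc, Nnt and Rtkn2 with r = 0.98, and Cabp7 and Pcdh20 with r = 0.97. None of them was in any list of microglial or macrophage genes used here. They were picked from 16321 genes over 8 mice. The red blood cell markers had a median r of 0.69 with the profile, the oligodendrocyte markers 0.50, the astrocyte markers 0.48, the neuronal markers 0.33, the endothelial markers 0.10 and the choroid plexus markers -0.32.

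**Figure D5:**
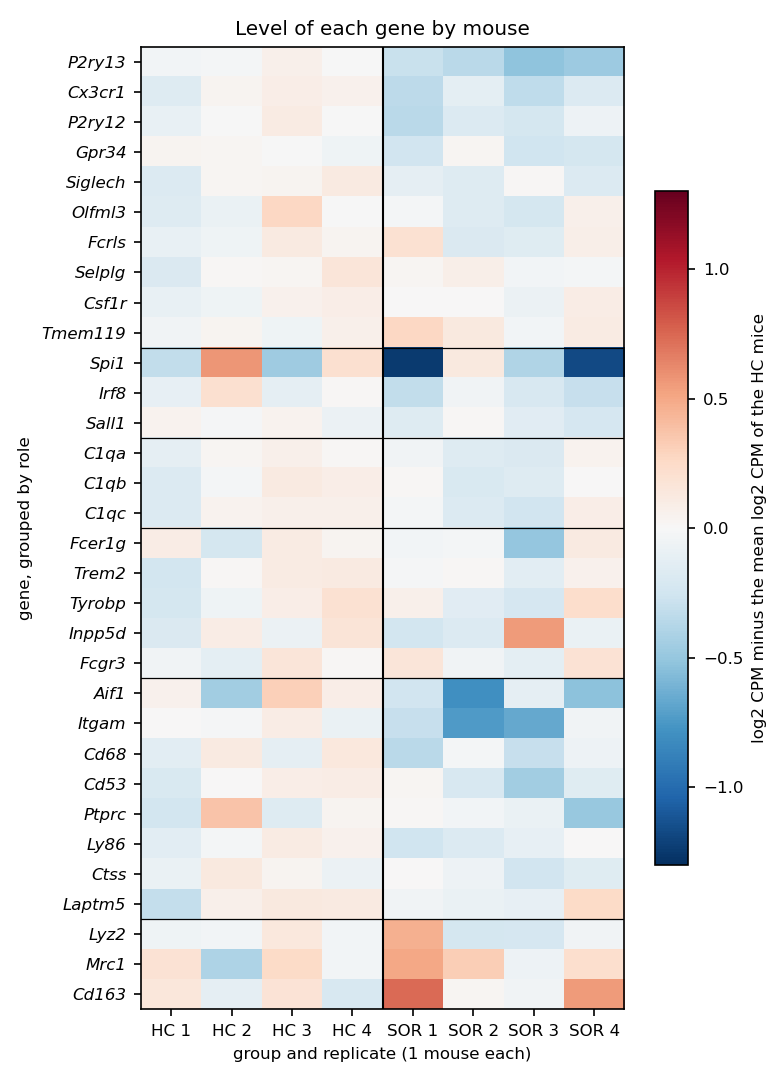
Log2 CPM of each of the 32 genes (rows, grouped by role) in each mouse (columns, 4 HC then 4 SOR), minus the mean over the HC mice, as colour from blue (lower) to red (higher). P2ry13 is blue in all 4 SOR mice, Spi1 is bluest in SOR replicates 1 and 4, and Cd163 is reddest in SOR replicate 1.

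Each of the 4 genes with a small p was also expressed as a percentage of the summed counts of the other 28 genes. This comparison was chosen after their values were seen and is described without a test. The 4 were picked for their p and all were lower in SOR. A lower percentage in SOR was therefore built in and cannot show that they differ from the rest. How often other genes are apart on this scale was not computed. P2ry13 was 2.61 ± 0.113% of that sum in HC and 2.05 ± 0.136% in SOR (SD, n = 4 each), with no overlap between groups. P2ry12 was 9.22 ± 0.264% in HC and 8.33 ± 0.729% in SOR, with the highest SOR mouse at 8.79% and the lowest HC mouse at 8.90%. Cx3cr1 was 7.10 ± 0.168% in HC and 6.25 ± 0.519% in SOR, and Itgam was 5.57 ± 0.425% and 4.32 ± 0.804%, with overlap in both.

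Genes of related pathways were counted in the same fit, and none of the genes in the 7 lists passed an adjusted p under 0.05. The likelihood ratio test of edgeR passed 1, Tlr9, and DESeq2 passed Tlr9 and Lair1, all lower in SOR. Among 37 other microglial genes, 15 had a log2 fold change above 0 and 22 below, and the median was -0.04. An unadjusted p under 0.05 was found for 3 of the 37, against 10.1% of all genes. The groups did not overlap for 2 of the 37, both lower in SOR, against 6.95% of all genes. Lair1, an inhibitory collagen receptor, was at 10.0, 9.42, 8.71 and 9.76 CPM in HC and at 6.32, 7.22, 7.78 and 7.17 CPM in SOR. Every SOR mouse lay below every HC mouse, with a log2 fold change of -0.41 (SE 0.0912, adjusted p = 0.125 by edgeR). Cyth4 had -0.23 (adjusted p = 0.438) and Abi3 had 0.63 (adjusted p = 0.455) in the same fit. Cst3, the most abundant gene of this list, had -0.00049.

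Genes of signals read by microglia lay on both sides of 0. Of 17 tested ligand and checkpoint genes 11 were above 0 and 6 below, with a median log2 fold change of 0.03. Cd200, which encodes a neuronal protein that restrains microglia, had -0.18 (adjusted p = 0.461 by edgeR), and Mertk, a phagocytic receptor also made by astrocytes, had 0.16 (adjusted p = 0.493 by edgeR). Sirpa, the receptor for CD47, had -0.06. Of 17 tested complement genes 8 were above 0 and 9 below, with a median of -0.02. Clu had 0.06 and C4b had -0.02. An unadjusted p under 0.05 was found for 3 of the 17, 2 lower and 1 higher, against 10.1% of all genes. The lower genes were Cd46 at -0.28 and Masp1 at -0.24. The higher gene was C4a at 0.98, with 0.685 ± 0.266 CPM in HC and 1.32 ± 0.779 CPM in SOR (SD, n = 4 each). Reads of this near-copy of C4b may be split between the pair. Vsig4, a complement receptor of tissue macrophages, was listed at 0 counts in all 8 libraries.

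Of 22 genes of microglial activation and lipid handling, 10 were above 0 and 12 below, at a median log2 fold change of -0.01, and none had an unadjusted p under 0.05. Apoe, abundant in astrocytes too, had -0.02 and Fth1 had 0.04. Of 25 inflammatory cytokine and pattern receptor genes, 10 did not pass the filter, among them Il1b, Tnf, Il6 and Ccl2, which had at most 18.4 counts in a library. Tested without a filter, these 4 genes had adjusted p between 0.729 and 0.948 by edgeR. Of the 15 tested, 5 were above 0 and 10 below, with a median of -0.16. An unadjusted p under 0.05 was found for 5 of the 15, 2 higher and 3 lower, against 10.1% of all genes. The groups did not overlap for 4, against 6.95% of all genes, and these were Tlr9, Tlr4, Il1a and Myd88, the last named after its values were seen, at 0.32 (adjusted p = 0.517 by edgeR). The toll-like receptor genes went both ways at low levels. Tlr9 was at 0.887, 1.12, 1.01 and 1.27 CPM in HC and at 0.523, 0.492, 0.748 and 0.505 CPM in SOR, with a log2 fold change of -0.92 (SE 0.202, adjusted p = 0.125 by edgeR). Tlr4 was at 1.50, 1.24, 1.71 and 1.36 CPM in HC and at 2.64, 1.95, 2.45 and 1.76 CPM in SOR, with 0.60 (SE 0.168, adjusted p = 0.233 by edgeR). The groups were apart for both genes, in opposite directions. Tlr7 had 0.48, Tlr3 had -0.16, Il1a had -0.52 and Il18 had 0.04.

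Of 20 interferon response genes, 6 were above 0 and 14 below, with a median log2 fold change of -0.11. Irf7 had -0.69 and Ifit3 had -0.46, with adjusted p of 0.400 and 0.431 by edgeR. These were the 2 of the 20 with an unadjusted p under 0.05, against 10.1% of all genes. HC replicate 2 was the highest of the 8 mice for both, at 3.22 CPM for Irf7 and 10.5 CPM for Ifit3. Irf7 was the only 1 of the 20 whose groups did not overlap, against 6.95% of all genes. Its lowest HC mouse was at 1.44 CPM and its highest SOR mouse at 1.43 CPM. Stat2, which carries the interferon signal to the nucleus, had 0.02. Of 10 tested further border macrophage genes, 5 were above 0 and 5 below, with a median of 0.05, and Maf had 0.14 and Stab1 had 0.15.

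Markers of other cells gave the setting of these values. Of 13 genes of blood leukocytes other than macrophages, 10 did not pass the filter, and their summed level was 0.909 to 1.59 CPM in HC and 1.10 to 1.89 CPM in SOR. Ms4a1, the B cell gene for CD20, had a log2 fold change of -0.09 and the monocyte gene Ly6c2 had 0.75, both below 1 CPM. The neutrophil genes S100a8 and S100a9 had at most 2.96 and 7.01 counts in a library. All 8 oligodendrocyte markers were below 0, the median log2 fold change was -0.16, and their summed level was 5782 to 6335 CPM in HC and 4748 to 6270 CPM in SOR. Mag, a myelin glycoprotein, had -0.21, at an adjusted p of 0.463 by edgeR. Neuronal and astrocyte markers had medians of -0.01 and 0.02, and the endothelial markers had 0.02, with Cldn5 at -0.30 (adjusted p = 0.199 by edgeR). The myelin genes, like the 32, were lowest in SOR replicate 3 as a sum, and whether the makeup of the dissected tissue plays a part in either was not tested.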

How the data were processed

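RNA-seq of the dorsal hippocampus was used for 4 HC and 4 SOR mice, and the other assays of the series were not analysed here. The authors deposited estimated counts per gene, summarised with tximport and not normalized, of which 52.6% are not whole numbers; their methods name STAR and featureCounts within bcbio-nextgen and a stranded kit with ribosomal depletion, while the labels give polyA RNA and mm10. Whether abundance scaled these estimates is not stated. Each column belongs to 1 mouse.

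Counts were rounded, filtered with filterByExpr and scaled with upper-quartile factors. SOR was compared with HC in edgeR 4.0.16 (R 4.3.3) by glmQLFit and glmQLFTest, a quasi-likelihood test, with no covariate and Benjamini-Hochberg adjustment over 22018 genes. The study also used RUVs with an unstated number of factors, so 1 to 3 factors were alternatives. A standard error is the log2 fold change divided by the square root of F. Scaling by TMM, by RLE or by library size alone was tried, as were 2 filters, unrounded counts, the likelihood ratio test, DESeq2 1.42.0, limma-voom (limma 3.58.1), the replicate number as a block, and leaving out each library. Exact two-sided permutation tests used log2 CPM and 70 assignments. The fit was tested on simulated data at an adjusted p under 0.05. With 200 genes changed by a fold change of 2, it recovered 93.5% of them, and 7.43% of its calls were false. With no gene changed it made 0 calls. Smaller changes were not simulated, so the simulation does not show how many differences of the size seen here would be missed.

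GENCODE M21 (GRCm38) gave positions and lengths, with a record for 54495 of 54532 genes. Promoters came from RefSeq (GRCm38.p6). Named were all 32 genes, from each list the 2 of highest CPM and up to 4 of lowest unadjusted p under 0.05, and the 10 genes most like the mean profile of the 32. Some genes that this rule names are not reported here. Overlapping genes and untested list genes, named outside this rule, were chosen after their values were seen. The 32 genes and the lists were chosen with earlier results of these data known. Mice are the replicates, and p-values set the difference between groups against the spread between mice. The number of mice limits the precision.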

Additional observations from a re-analysis of the deposited data

Results flagged for a closer look

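In 6 cases a mouse lay far from the other 3 of its group by Dixon's gap test at the 95% level. The test was run on 66 groups of 4 mice, and chance marks about 1 in 20. C1qc was at 23.9 CPM in HC replicate 1 and between 28.0 and 28.3 CPM in the other HC mice. Laptm5 was low in the same mouse, at 12.7 CPM against 16.4 to 17.2 CPM. It was high in SOR replicate 4, at 18.7 CPM against 14.6 to 15.2 CPM in the other SOR mice. Gpr34 was at 10.9 CPM in SOR replicate 2 against 8.94 to 9.14 CPM. Lyz2 was at 4.79 CPM in HC replicate 3 against 4.20 to 4.26 CPM. Inpp5d was at 12 CPM in SOR replicate 3 against 6.92 to 7.71 CPM.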

How the results depend on the processing

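A call required both the adjusted p and the fold threshold of the study. None of the 32 genes was called under the 13 alternatives that kept all 8 samples or when 1 sample was left out. Without SOR replicates 1 and 4, an alternative added after the data were seen, 1 was called, Itgam at -0.71. Those libraries held the highest Itgam values of the SOR mice. The median log2 fold change of the 32 stayed between -0.16 and -0.07. P2ry13, Cx3cr1, P2ry12 and Itgam kept their sign and an unadjusted p under 0.05 in each of these 13 alternatives and 8 leave-one-out fits. They were picked for such a p in the quasi-likelihood fit, and the other fits reuse the same mice, so these are not independent checks. The adjusted p of P2ry13 lay between 7.79e-04 and 0.257, and between 0.0688 and 0.245 with 1 sample left out. At an adjusted p under 0.05 alone, the likelihood ratio test passed 1 gene of the related lists and DESeq2 passed 2. Of those 2, Lair1 was at a log2 fold change of -0.39, short of the fold threshold. Both tests also passed P2ry13 of the 32 genes by adjusted p alone. Over all genes the number called was 105 by the likelihood ratio test (69 higher, 65.7%), 114 by DESeq2 (82 higher, 71.9%) and 68 without a fold threshold, against 38 (86.8% higher), and 22 to 38 with 1 sample left out, the lowest counts being 22 without HC replicate 2 and 25 without HC replicate 4. The labels do not state whether the replicate numbers pair the mice. After subtraction of group means, same-numbered HC and SOR samples correlated at -0.0837 to 0.073 and differently numbered ones at -0.2 to 0.194. With the replicate block 30 genes were called (27 higher), none of the 32. In that fit 6 of the 32 (18.8%) had an unadjusted p under 0.05, against 9.06% of all genes.

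The sign changed for 12 genes, in each case with an adjusted p of at least 0.501 under that setting. Laptm5 was at 0.02 with TMM and RLE factors and DESeq2, 0.0047 with library size, 0.0042 when a gene needed over 5 counts in 2 samples, 0.01 and 0.0039 with 1 and 3 RUVs factors and 0.0034 with the replicate block. Tyrobp was at 0.0038, 0.01 and 0.0039 and Fcrls at 0.01 in each with TMM, RLE and DESeq2. With limma-voom Selplg was at -0.0012 and Inpp5d at -0.0033. Lyz2 was at -0.06 and -0.05 with 2 and 3 RUVs factors and -0.0039 with the replicate block. Without SOR replicates 1 and 4 Csf1r was at -0.04, Fcgr3 at -0.09, Cd163 at -0.02 and Lyz2 at -0.23. With 1 sample left out the ranges were -0.03 to 0.03 for Csf1r, -0.10 to 0.01 for Trem2, -0.11 to 0.05 for Tyrobp, -0.09 to 0.04 for Fcrls and for Laptm5, -0.15 to 0.0013 for Olfml3, -0.18 to 0.01 for Fcer1g, -0.0016 to 0.10 for Fcgr3, -0.05 to 0.05 for Selplg, -0.16 to 0.10 for Lyz2 and -0.18 to 0.12 for Inpp5d. The cause was not tested.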
